A study of Mus musculus with 14 samples.

Results

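The 9 genes described here are markers of the choroid plexus epithelium: Ttr, Enpp2, Rarres2, Sostdc1, Kl, Folr1, Aqp1, Clic6 and Otx2. They were taken by symbol from a table of read counts over 48440 genes in mouse brain. All 9 were found, and all 9 were among the 24680 genes with enough reads to be tested. The table holds 14 bulk libraries of total RNA from C57BL/6 mice, 7 labelled CARIP-/- (knockout) and 7 labelled wild type, from cerebellum (3 libraries per genotype), cerebral cortex (2 per genotype, titled Cerebrum) and hippocampus (2 per genotype). No treatment or second allele is named, and the labels do not give age, the way the knockout was made, or whether libraries with the same number came from the same animal. P-values therefore measure the spread between these libraries, which may be technical in part. The comparisons ask whether loss of CARIP goes with a change of these transcripts in each region, and how the regions differ.

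The choroid plexus is a folded sheet of epithelium over a vascular stroma that hangs into the brain ventricles and secretes most of the cerebrospinal fluid. It lies in the ventricles of forebrain and hindbrain, and so borders the hippocampus and the underside of the cerebellum. Its epithelial cells make carrier proteins for hormones and vitamins, move ions and water, and are closed by tight junctions. In bulk tissue, fewer cells of a type and less RNA per cell cannot be told apart, and that holds for every level below.

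Counted reads ranged from 20.1 to 38.8 M per library, and levels are given as CPM, reads of a gene per 1 M reads, on library totals scaled by the trimmed mean of M-values. Markers picked for this check after their values were seen matched the labelled regions. The Purkinje cell gene Pcp2 had 76.9 to 127 CPM in cerebellum and at most 2.56 CPM elsewhere. Tbr1, a regulator of cortical projection neurons, had 151 to 240 CPM in cortex, 54.7 to 83.4 CPM in hippocampus and at most 1.95 CPM in cerebellum. The hippocampal gene Fibcd1 had 116 to 130 CPM in hippocampus and at most 21.4 CPM elsewhere.

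In each region 1 library stood apart for these genes, and these libraries were picked out after their values were seen. Wild-type cerebellum 1 had the lowest level of its 6 libraries for all 9 genes, where 18.4% of all tested genes were lowest in it. The median difference of the 9 genes from the median of the other 5 libraries was -3.77 on the log2 scale. Knockout cortex 2 had the highest level of its 4 libraries for all 9 genes, against 37% of all genes, with a median difference of 2.98. Wild-type hippocampus 2 was the highest of its 4 libraries for 8 of the 9 genes, against 26% of all genes, with a median difference of 1.96, and Rarres2 was the exception. The median over all tested genes was between -0.02 and 0 in these 3 libraries. Because the low library is a wild type, the high cortical one a knockout and the high hippocampal one a wild type, the genotype comparisons below are also given without the library concerned.

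**Figure D1:**
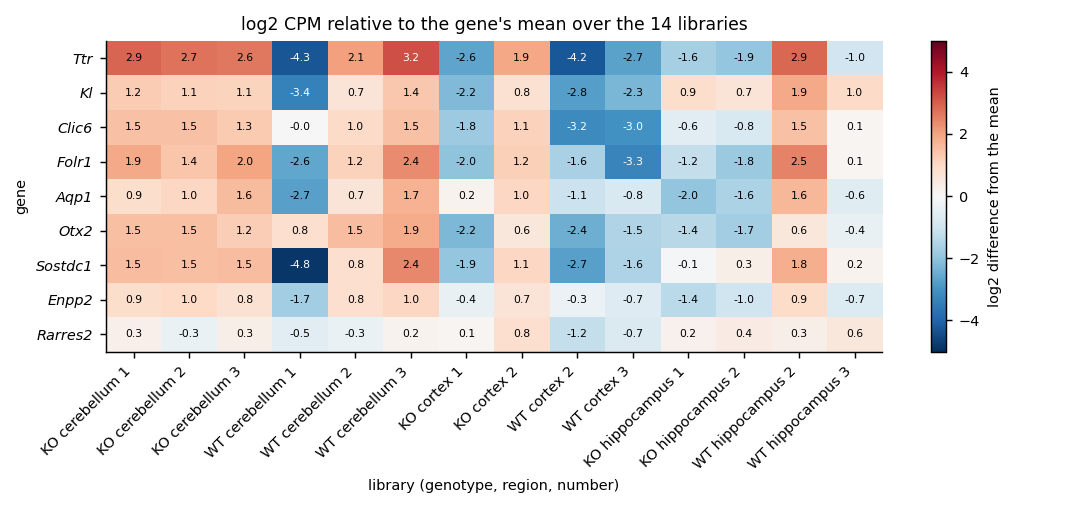
Heat map of the log2 CPM of each of the 9 genes (rows) in each of the 14 libraries (columns), relative to that gene's own mean over the libraries, with red above and blue below the mean. Wild-type cerebellum 1 is the low column among the cerebellar libraries, knockout cortex 2 and wild-type hippocampus 2 are the high columns of their regions, and Rarres2 varies least.

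Ttr encodes transthyretin, the carrier of thyroid hormone and of retinol-binding protein in cerebrospinal fluid, and it is a widely used marker of choroid plexus epithelium. The gene is on chromosome 18 (GRCm38, 20665280 to 20674321, plus strand). Ttr had 1020, 883 and 848 CPM in knockout cerebellum 1 to 3, and 6.84, 562 and 1260 CPM in wild-type cerebellum 1 to 3. In cortex it had 21.9 and 511 CPM in knockouts 1 and 2, and 7.13 and 21.3 CPM in wild types 2 and 3. In hippocampus it had 42.9 and 35.2 CPM in knockouts 1 and 2, and 995 and 68.6 CPM in wild types 2 and 3. Levels thus spanned 184-fold within cerebellum, 71.6-fold within cortex and 28.2-fold within hippocampus, and the genotypes overlapped in cerebellum. Ttr had the widest spread of the 9 genes, with an SD of 2.87 on the log2 scale over the 14 libraries. Per kilobase of exon it was also the most abundant in cerebellum, with a median of 730 CPM per kilobase. Enpp2 had 101 there, Clic6 7.18 and the other 6 genes 0.794 to 5.42. The median of Ttr was above that of Enpp2 in hippocampus (47 against 31.1) but below it in cortex (18.2 against 43.6).

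Enpp2 encodes autotaxin, a secreted lysophospholipase D that makes lysophosphatidic acid (LPA), and is also transcribed by maturing oligodendrocytes. Its gene body is on chromosome 15 (54838901 to 54952892, minus strand). Its level was 588, 646 and 542 CPM in the knockout cerebella and 96, 576 and 652 CPM in the wild-type cerebella. The cortical libraries had 246 and 501 CPM (knockout) and 257 and 203 CPM (wild type), and the hippocampal ones 125 and 161 CPM (knockout) and 611 and 198 CPM (wild type). Enpp2 followed the same high and low libraries as Ttr, over a narrower range: where Ttr was at 6.84 to 68.6 CPM, Enpp2 was still at 96 to 257 CPM. Among reads of the pair, Enpp2 took 34.2% to 50.6% in the 5 cerebellar libraries other than wild type 1, and 93.4% in wild type 1 (exact binomial 95% interval 92.3% to 94.3%, counting error only). It took 90.5% to 97.3% in the 3 cortical libraries other than knockout 2.

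Rarres2 encodes chemerin, a secreted attractant of immune cells that is also an adipokine. The locus is on chromosome 6 (48569696 to 48572789, minus strand), overlapping Lrrc61 on the other strand. The knockout cerebella had 2.65, 1.74 and 2.72 CPM and the wild-type cerebella 1.5, 1.74 and 2.47 CPM. Cortex had 2.38 and 3.98 CPM in the knockouts and 0.92 and 1.29 CPM in the wild types. Hippocampus had 2.54 and 2.92 CPM in the knockouts and 2.73 and 3.26 CPM in the wild types. Rarres2 was the least variable of the 9 genes (SD 0.54 on the log2 scale, range 4.33-fold), and wild-type hippocampus 2 was not high for it. Wild-type cerebellum 1 was its lowest cerebellar library only by a small margin.

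Sostdc1 encodes a secreted antagonist of bone morphogenetic protein (BMP) and Wnt signals. Its position is on chromosome 12 (36314139 to 36318452, plus strand). It had 6.41, 6.36 and 6.44 CPM in the knockout cerebella, and 0, 3.99 and 11.7 CPM in the wild-type cerebella. With 0 reads in wild-type cerebellum 1, where 3 reads would be 0.132 CPM, the other cerebellar libraries were at least 30.2-fold to 88.7-fold higher. Cortex had 0.509 and 4.57 CPM in the knockouts and 0.268 and 0.685 CPM in the wild types. Hippocampus had 2.05 and 2.7 CPM in the knockouts and 7.8 and 2.44 CPM in the wild types. All 4 hippocampal libraries were above the 3 low cortical ones.

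Kl encodes alpha-Klotho, the co-receptor that lets FGF receptors bind FGF23, and its shed form circulates in cerebrospinal fluid. It lies on chromosome 5 (150952607 to 150993817, plus strand). It had 55.4, 51.3 and 49.8 CPM in the knockout cerebella and 2.16, 36.6 and 59.5 CPM in the wild-type cerebella. Cortex had 4.92 and 39.9 CPM in the knockouts and 3.37 and 4.64 CPM in the wild types. Hippocampus had 42.3 and 36.4 CPM in the knockouts and 87.2 and 45.6 CPM in the wild types. The hippocampal libraries thus kept a Kl level close to the cerebellar one also where Ttr was at 35.2 to 68.6 CPM. Among reads of the Kl and Ttr pair, Kl took 4.52% to 6.12% in 5 cerebellar libraries, 7.25% in knockout cortex 2 and 8.06% in wild-type hippocampus 2, but 39.9% to 50.8% in the other 3 hippocampal libraries. The Kl share was 17.9% to 32.1% in the other cortical libraries and 24% in wild-type cerebellum 1.

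Folr1 encodes folate receptor alpha, which carries folate across the choroid plexus epithelium. It lies on chromosome 7 (101858331 to 101870788, minus strand), where Anapc15 overlaps it on the other strand. It had 5.62, 3.94 and 5.85 CPM in the knockout cerebella and 0.177, 3.34 and 7.85 CPM in the wild-type cerebella. Cortex had 0.297 and 3.44 CPM in the knockouts and 0.422 and 0.0761 CPM in the wild types, the last from 2 reads. Hippocampus had 0.58 and 0.349 CPM in the knockouts and 8.43 and 1.53 CPM in the wild types. Where both were high, Folr1 took 0.444% to 0.684% of the reads of the pair in 5 cerebellar libraries, 0.67% in knockout cortex 2 and 0.84% in wild-type hippocampus 2.

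Aqp1 encodes the water channel of the apical membrane of the epithelium. It lies on chromosome 6 (55336432 to 55348555, plus strand). CPM values were 3.01, 3.39 and 4.94 in the knockout cerebella and 0.177, 2.59 and 5.54 in the wild-type cerebella. Cortex had 1.83 and 3.35 CPM in the knockouts and 0.728 and 0.914 CPM in the wild types. Hippocampus had 0.357 and 0.48 CPM in the knockouts and 5.2 and 1.02 CPM in the wild types. All 4 cortical libraries were above both knockout hippocampi, while for Kl 3 of the 4 cortical libraries were below both.

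Clic6, a member of the chloride intracellular channel family, lies on chromosome 16 (92485736 to 92541243, plus strand). It had 29.6, 30.2 and 26.6 CPM in the knockout cerebella and 10.5, 20.9 and 30 CPM in the wild-type cerebella. Cortex had 3.01 and 23.7 CPM in the knockouts and 1.11 and 1.26 CPM in the wild types. Hippocampus had 7.22 and 6.28 CPM in the knockouts and 30 and 11.4 CPM in the wild types. Wild-type cerebellum 1 was low for Clic6, but by much less than for Ttr: Clic6 took 60.6% of the reads of the pair there (exact interval 55.5% to 65.4%) and 2.34% to 3.59% in the other cerebellar libraries.

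Otx2 encodes a homeodomain transcription factor that is needed to form and keep the choroid plexus and is also expressed in the developing cerebellum and thalamus. It lies on chromosome 14 (48657677 to 48673819, minus strand), overlapping the non-coding Otx2os1 on the other strand, which had at most 2.21 CPM. Otx2 had 11.8, 11.8 and 9.65 CPM in the knockout cerebella and 7.28, 11.9 and 14.9 CPM in the wild-type cerebella. Cortex had 0.806 and 6 CPM in the knockouts and 0.69 and 1.37 CPM in the wild types. Hippocampus had 1.52 and 1.18 CPM in the knockouts and 6.12 and 3.11 CPM in the wild types. Every cerebellar library was above every cortical and hippocampal one, wild-type cerebellum 1 included, where Otx2 took 51.6% of the reads of the pair with Ttr against 1.13% to 2.07% in the other 5.

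**Figure D2:**
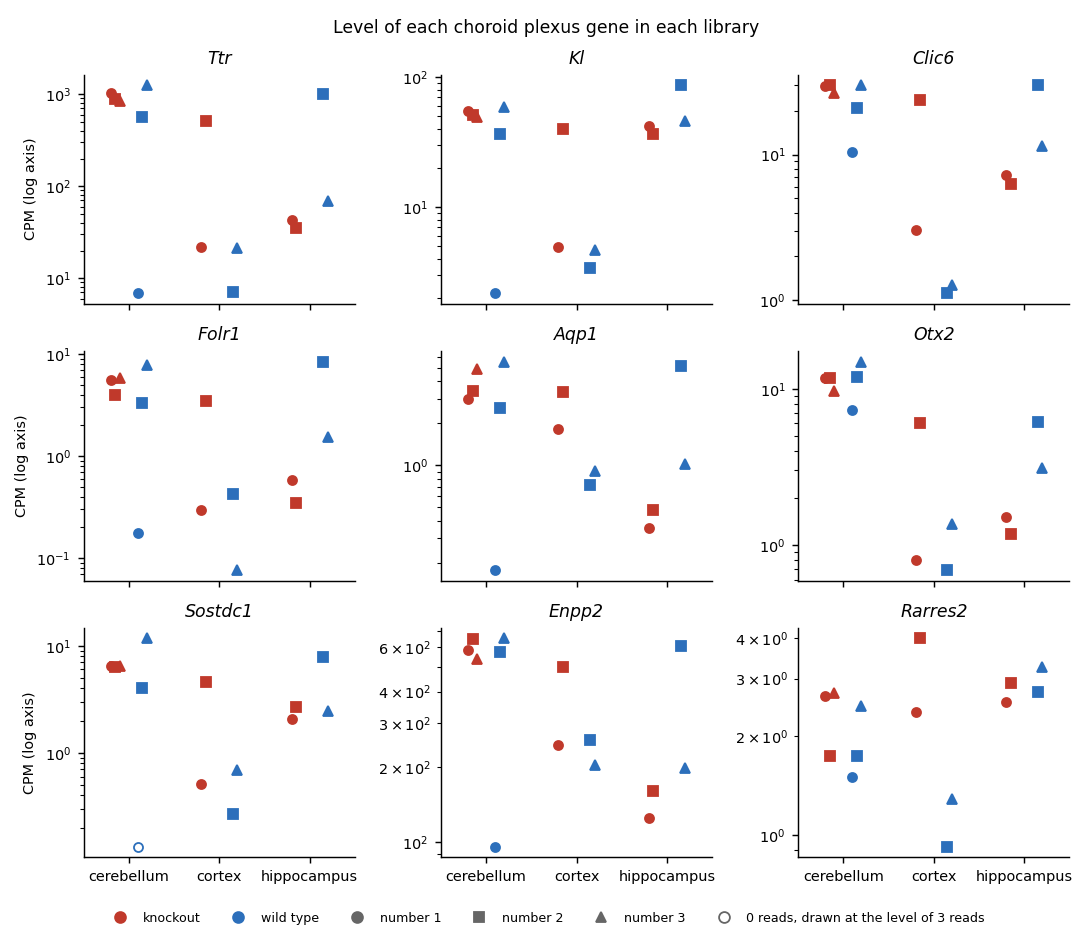
CPM on a log axis of each of the 9 genes by region, with 1 point per library, knockout in red and wild type in blue, and the marker shape giving the library number. The point of Sostdc1 for wild-type cerebellum 1 had 0 reads and is drawn open at the level of 3 reads, and the same 3 libraries are low or high in nearly every panel.

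Promoter sequences are shown for 3 of the 9 genes, Kl, Aqp1 and Otx2, which kept different levels where Ttr was low. Promoters of the other genes are not reported here. The table of RefSeq starts (GRCm38.p6) gave 6 windows of 250 bases before a start for these 3 genes. The first Otx2 window is printed, since its other 3 windows overlap annotated exons. All Otx2 windows lie inside the gene body given above, before internal starts, so the region before its GENCODE start was not searched. The Aqp1 window ends before the start that GENCODE gives. Capitals mark matches, on either strand, to the core TAATCC bound by OTX-type homeodomains or to the GC box GGGCGG. Each sequence reads 5′ to 3′ in the direction of the gene.
Kl, chr5:150952357-150952606, plus strand: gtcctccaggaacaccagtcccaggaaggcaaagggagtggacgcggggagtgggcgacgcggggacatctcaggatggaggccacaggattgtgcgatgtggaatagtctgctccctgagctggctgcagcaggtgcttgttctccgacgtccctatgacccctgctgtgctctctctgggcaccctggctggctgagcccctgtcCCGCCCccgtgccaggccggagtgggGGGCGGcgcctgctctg
Aqp1, chr6:55336049-55336298, plus strand: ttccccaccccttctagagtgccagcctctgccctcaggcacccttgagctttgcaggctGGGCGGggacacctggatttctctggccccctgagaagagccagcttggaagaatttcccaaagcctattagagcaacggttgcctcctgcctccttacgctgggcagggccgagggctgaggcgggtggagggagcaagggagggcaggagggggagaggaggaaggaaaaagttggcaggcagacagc
Otx2, chr14:48667645-48667894, minus strand: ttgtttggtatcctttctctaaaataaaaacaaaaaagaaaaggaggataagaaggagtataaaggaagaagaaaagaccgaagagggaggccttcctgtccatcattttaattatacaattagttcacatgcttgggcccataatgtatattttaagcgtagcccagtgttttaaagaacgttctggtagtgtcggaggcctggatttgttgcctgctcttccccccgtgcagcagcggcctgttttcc
The Kl window held 2 GC boxes and the Aqp1 window 1, and the Otx2 window neither motif. Neither Kl nor Aqp1 held the homeodomain core, and 1 of the 3 other Otx2 windows held it once. Among 32851 such windows of all genes, 6.25% held TAATCC and 32.7% held GGGCGG. These are matches of letters only.

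The genes differed in how far they fell where Ttr was low. Within hippocampus Ttr spanned 28.2-fold, Folr1 24.2-fold and Aqp1 14.6-fold, but Otx2 5.2-fold, Enpp2 4.9-fold, Clic6 4.78-fold, Sostdc1 3.8-fold and Kl 2.4-fold. The order differed in cortex, where Ttr spanned 71.6-fold, Folr1 45.2-fold, Clic6 21.3-fold, Sostdc1 17-fold, Kl 11.8-fold and Otx2 8.69-fold. Aqp1 spanned only 4.61-fold there and Enpp2 2.46-fold. Within cerebellum Ttr spanned 184-fold, Folr1 44.5-fold, Aqp1 31.4-fold and Kl 27.5-fold, but Enpp2 6.78-fold, Clic6 2.87-fold and Otx2 2.05-fold. In wild-type cerebellum 1 Clic6 and Otx2 thus kept levels well above those of the 3 low cortical libraries, whose Ttr was at 7.13 to 21.9 CPM. Over the 14 libraries the log2 levels of Ttr correlated most with those of Folr1 (Pearson r = 0.95), and the pairs Kl with Sostdc1 (r = 0.95) and Enpp2 with Aqp1 (r = 0.96) were as close. The lowest correlations were those of Rarres2 with Enpp2 (r = 0.22) and Otx2 (r = 0.26), and Rarres2 had 0.22 to 0.7 with the other 8 genes. Pairs without Rarres2 lay in that range too, among them Kl with Otx2 (r = 0.54) and Otx2 with Sostdc1 (r = 0.55). These values are descriptions over libraries that share region and dissection, and carry no test.

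**Figure D3:**
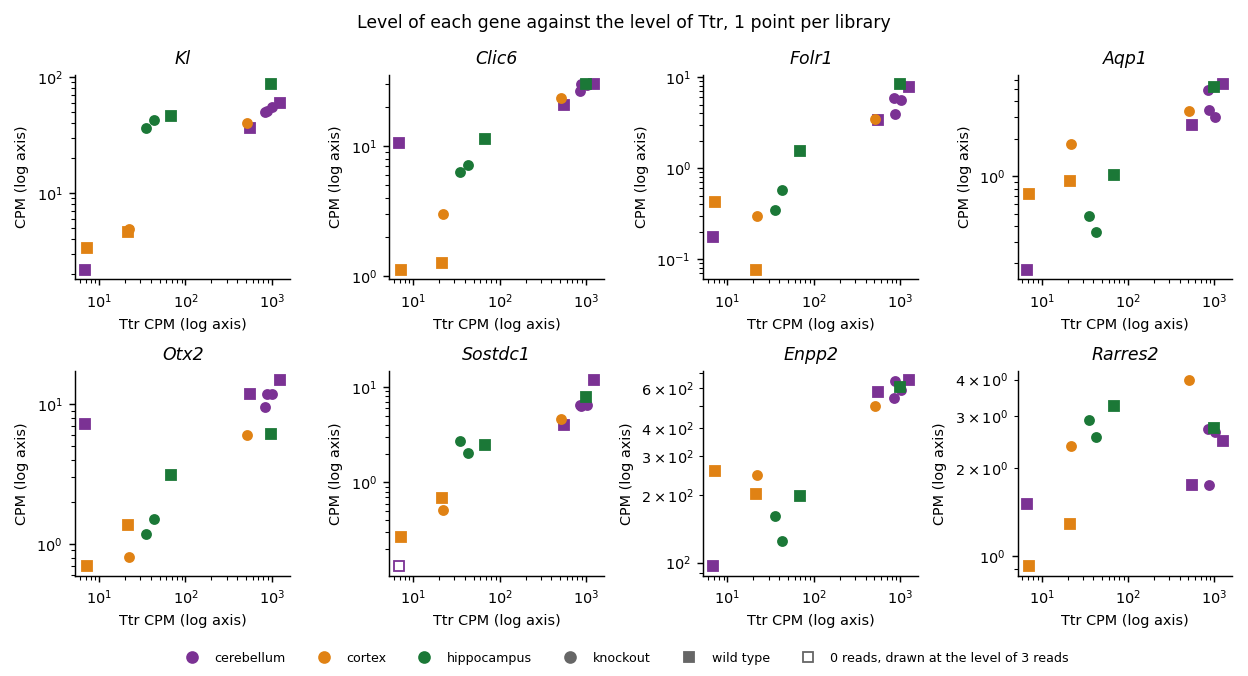
CPM of each of the other 8 genes against the CPM of Ttr, both on log axes, with 1 point per library coloured by region, circles for knockout and squares for wild type. Kl is at 36.4 CPM or more in every hippocampal library, and Clic6 and Otx2 in the cerebellar library with 6.84 CPM of Ttr lie above the 3 cortical libraries with the least Ttr.

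The genes outside the 9 whose level followed the mean of the 9 most closely over the 14 libraries were F5 (coagulation factor V, r = 0.97), Tmem72 (r = 0.97), Wdr86 (r = 0.96), Rbm47 (an RNA-binding protein, r = 0.95) and Krt18 (a keratin of simple epithelia, r = 0.95). They were followed by Mfrp (r = 0.94), the prolactin receptor gene Prlr (r = 0.94), the tight-junction gene Cldn2 (r = 0.93), the bicarbonate transporter gene Slc4a5 (r = 0.93) and 1500015O10Rik (r = 0.92). Of these 10, taken from 18457 genes, 8 were on the lists of choroid plexus genes and Wdr86 and Rbm47 were not. Those lists were chosen with earlier results of these data known, so the overlap is a description only. F5 ranged from 1.24 CPM in wild-type cerebellum 1 to 25.7 CPM in wild-type hippocampus 2. Tmem72 ranged from 0.397 CPM in wild-type cerebellum 1 to 31.5 CPM in wild-type cerebellum 3. The 5 genes closest to Enpp2 were Aqp1 (r = 0.96), the retinoid transporter gene Abca4 (r = 0.94), the calcium channel gene Trpv4 (r = 0.94), F5 (r = 0.93) and Tmem72 (r = 0.93).

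Further choroid plexus genes moved with the 9 in the libraries that stood apart. Of 15 transporter and channel genes of the epithelium, 9 were lowest of the region in wild-type cerebellum 1, 12 highest in knockout cortex 2 and 15 highest in wild-type hippocampus 2. Of 22 junction, receptor, secreted and regulatory genes of the epithelium the counts were 19, 21 and 21. Over all tested genes the shares were 18.4%, 37% and 26%. The median log2 differences of these 2 lists from the region's other libraries were -0.53 and -2 in wild-type cerebellum 1, 0.91 and 1.7 in knockout cortex 2, and 1.07 and 1.78 in wild-type hippocampus 2.

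Markers of other cell types and of neighbouring tissue moved as well in knockout cortex 2, where 37% of all tested genes were highest of the region. All 8 markers of striatal projection neurons were highest in it, at a summed 782 CPM against 110 to 128 CPM in the other 3 cortical libraries, and none was at 0. All 9 tested ependymal markers were highest there, at 39.8 against 7.16 to 12.2 CPM, as were 7 of 10 thalamic and habenular markers, at 602 against 305 to 330 CPM, and 11 of 12 oligodendrocyte markers, at 6070 against 1910 to 3910 CPM. In wild-type hippocampus 2, where 26% of all tested genes were highest, 10 of 12 oligodendrocyte markers were, at 5730 against 3220 to 4790 CPM. The ependymal sum there, 28.8 CPM, lay inside the 16.5 to 34.1 CPM of the others. In wild-type cerebellum 1 the ependymal sum was 12.9 CPM against 17 to 29.7 CPM in the other 5, and the fibroblast sum of 122 CPM was close to the 121 and 127 CPM of the other wild types. The part of these cells and tissues in the levels of the 9 genes was not tested. Hox genes, which are on in hindbrain tissue, had a summed 11.1 CPM in knockout cerebellum 2 and 13 CPM in wild-type cerebellum 2, and at most 0.68 CPM in the other 4 cerebellar libraries. Those 2 cerebellar libraries did not stand apart for the 9 genes. In knockout cortex 2 the Hox sum was 1.19 CPM, against 0.0761 to 0.153 CPM in the other cortical libraries. Few reads lie behind that sum, with 5 of the 8 Hox genes at 3 reads or fewer.

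**Figure D4:**
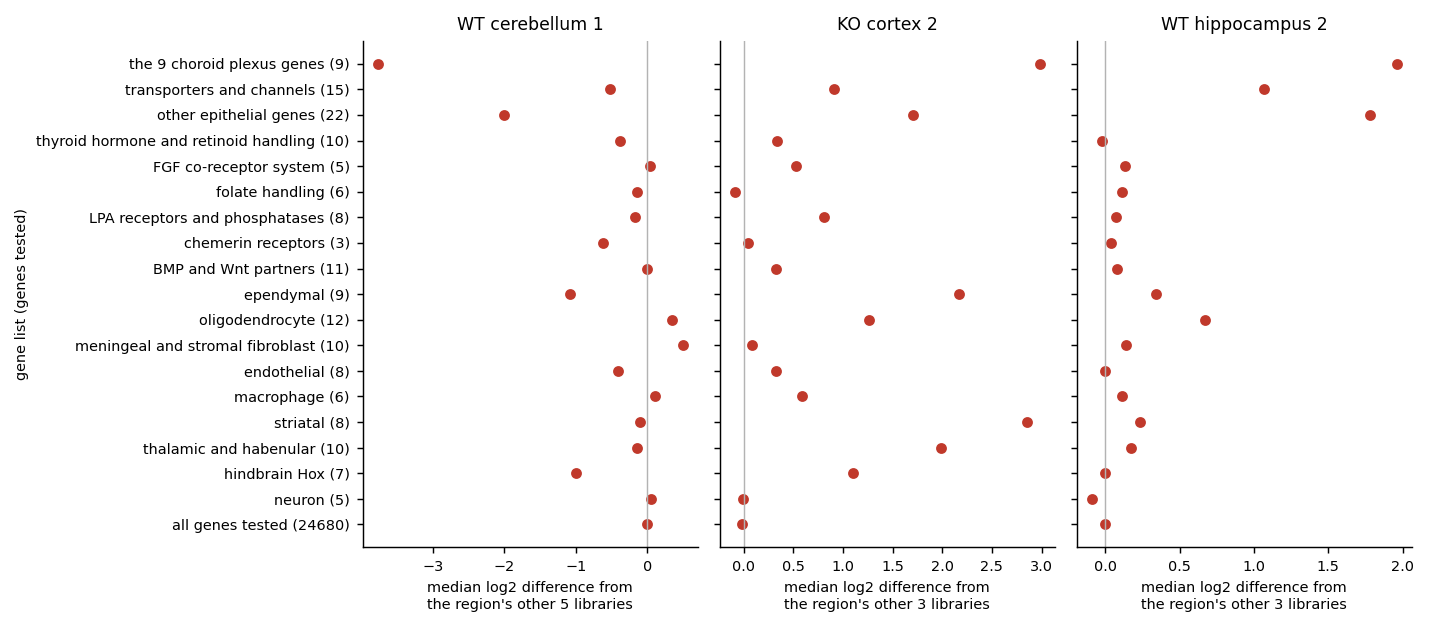
Median log2 difference, in each of 3 libraries, of the genes of a list from the median of the other libraries of the same region, with 1 point per list and the number of genes tested in brackets. The 3 choroid plexus lists are low in wild-type cerebellum 1 and high in the other 2 libraries, and the striatal, thalamic and ependymal lists are higher in knockout cortex 2 than in the other 2.

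In the cerebellum the knockout and wild-type libraries overlapped for all 9 genes, and none passed the test (edgeR quasi-likelihood, Benjamini-Hochberg adjusted p under 0.05 over all 24680 genes). No other gene passed either, so percent passing was 0, with 785 genes at an unadjusted p under 0.05, none of them among the 9, and 2 genes by DESeq2, again none of the 9. Genotypes did not overlap for 9.3% of all tested genes. Of the 9 genes, 8 had estimates above 0 and 1 below, with a median log2 fold change of 0.43, against -0.01 over all genes. Ttr had a mean of 916 ± 88.5 CPM in the knockouts and 608 ± 626 CPM in the wild types (SD, n = 3 each), with a log2 fold change of 0.59 ± 1.46 (SE). Kl had 0.67 ± 0.92, Enpp2 0.42 ± 0.62 and Otx2 -0.04 ± 0.53. Without wild type 1 the median was -0.05, with 4 estimates above and 5 below 0, and without wild type 3 it was 1.41. Without wild type 1, Ttr had 0.01 ± 1.2, Kl 0.12 ± 0.65, Enpp2 -0.05 ± 0.42 and Otx2 -0.27 ± 0.58. In this comparison all 10 fibroblast markers had estimates below 0, 5 of them at an unadjusted p under 0.05, and the sums were 69.1 to 83.3 CPM in the knockouts and 121 to 127 CPM in the wild types. All 12 oligodendrocyte markers had estimates below 0 too, with overlapping sums of 2410 to 4560 and 2670 to 9460 CPM. No marker of either list was at 0, none passed, and their part in the values of the 9 genes was not tested. With libraries paired by number, 0.421% of all genes passed and again none of the 9, whose median was 0.81.

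In the cortex all 9 estimates were higher in the knockout, none passed the test, and most fell toward 0 without knockout 2. Percent passing over all genes was 0 with edgeR, with 1825 genes at an unadjusted p under 0.05, of which Clic6, Otx2 and Rarres2 were 3. The median log2 fold change of the 9 genes was 2.43, against 0.02 over all genes. The genotypes did not overlap for 5 of the 9, Ttr, Kl, Clic6, Aqp1 and Rarres2, where 27.3% of all genes did not overlap, and for Ttr the margin was 21.9 against 21.3 CPM. Clic6 had the log2 fold change 3.5 ± 0.9 (SE, edgeR adjusted p = 0.66), from 13.4 ± 14.6 CPM in the knockouts and 1.18 ± 0.102 CPM in the wild types (SD, n = 2 each). Rarres2 had 1.52 ± 0.38 (edgeR adjusted p = 0.66) and Ttr 4.23 ± 2.06 (edgeR adjusted p = 0.69). DESeq2 passed 1 of the 9, Clic6 (log2 fold change 3.48 ± 0.84, adjusted p = 0.031), and 0.241% of all genes. Without knockout 2 the median fell to 0.29. Ttr then had 0.62 ± 2.18, Kl 0.29 ± 1.43, Clic6 1.34 ± 0.71 and Otx2 -0.36 ± 0.61, while Rarres2 had 1.09 ± 0.42 and Aqp1 1.14 ± 1.37. With knockout 2 as the only knockout library, the median of the 9 was 3.25, with Clic6 at 4.32, Otx2 at 2.54 and Rarres2 at 1.84. Knockout 2 was picked out for its high values, so these estimates restate that choice, and no call was taken from that fit.

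In the hippocampus all 9 estimates were lower in the knockout and none passed the test. Percent passing over all genes was 0 with edgeR, with 472 genes at an unadjusted p under 0.05, of which Folr1, Aqp1 and Otx2 were 3, and DESeq2 passed 2 genes and none of the 9. The median log2 fold change of the 9 genes was -1.61, against 0 over all genes. The genotypes did not overlap for 7 of the 9, all but Sostdc1 and Rarres2, where 36.6% of all genes did not overlap. Otx2 had the log2 fold change -1.77 ± 0.72 (SE, edgeR adjusted p = 1), from 1.35 ± 0.239 CPM in the knockouts and 4.61 ± 2.13 CPM in the wild types (SD, n = 2 each). Folr1 had -3.41 ± 1.52, Aqp1 -2.88 ± 1.16, Ttr -3.77 ± 2 and Kl -0.76 ± 1.12. Without wild type 2 the median was -0.75, still with 9 estimates below 0. Folr1 then had -1.71 ± 1.7, Aqp1 -1.28 ± 1.27, Otx2 -1.2 ± 0.85, Ttr -0.81 ± 2.06 and Kl -0.21 ± 1.43.

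**Figure D5:**
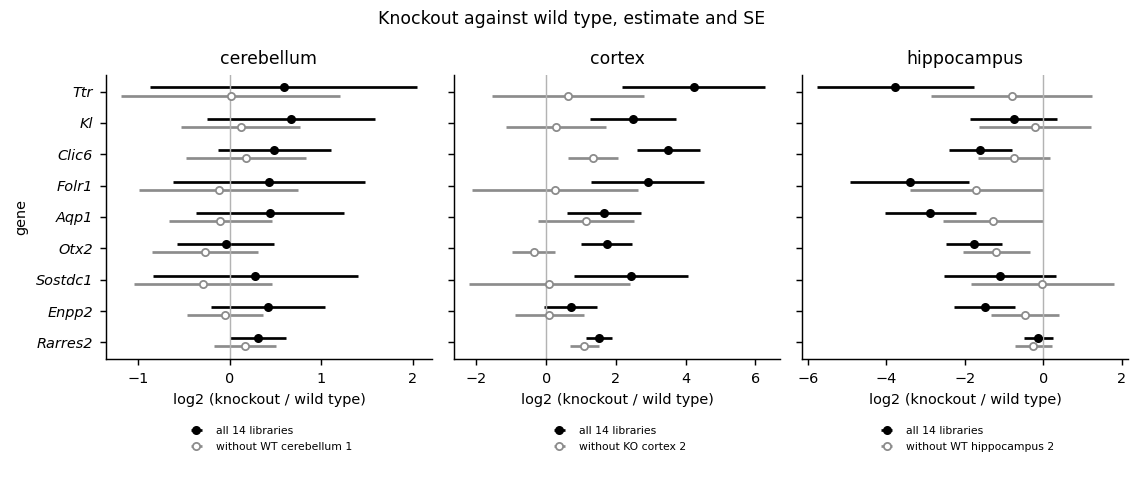
Log2 ratio of knockout to wild type with its SE for each of the 9 genes in the 3 regions, from all 14 libraries (filled) and without the library of the region that stood apart (open). From all 14 libraries the cortical estimates lie above 0 and the hippocampal ones below 0. Most move toward 0 without that library, and Otx2 in cortex then lies at -0.36.

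The difference of the knockout estimate between regions was tested as an interaction. None of the 9 genes passed for cerebellum minus cortex, hippocampus minus cortex or cerebellum minus hippocampus, and percent passing over all genes was 0, 0 and 0 with edgeR and 0 genes with DESeq2. At an unadjusted p under 0.05 there were 1309, 782 and 368 genes, of which 2, 6 and 1 were among the 9. Hippocampus minus cortex gave 9 estimates below 0, with Clic6 at -5.12 ± 1.2 (SE, edgeR adjusted p = 0.93) and Ttr at -7.99 ± 2.87 (edgeR adjusted p = 0.93). Both cortex and hippocampus enter this difference with a library that stood apart, in opposite genotypes. Without knockout cortex 2 its median went from -3.53 to -1.6, still with 9 estimates below 0, and Clic6 had -2.95 ± 0.87 and Ttr -4.39 ± 2.8. Without wild-type hippocampus 2 Clic6 had -4.26 ± 1.23 and Ttr -5.05 ± 2.73. For cerebellum minus cortex the median of the 9 went from -1.82 to 0.17 without knockout cortex 2. That library was picked out for its high values of these genes. A fit that keeps it as the only cortical knockout restates that choice, so passing in that fit is not taken as a difference between regions. Without knockout cortex 1, which leaves 1 knockout library in cortex, assumed to vary like the other groups, Clic6 and Otx2 passed for both differences, where 6.01% of all genes passed for cerebellum minus cortex and 2.95% for hippocampus minus cortex.

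Between regions, averaged over genotypes, all 9 estimates were higher in cerebellum than in cortex and 3 genes passed the test. The share of all genes that passed as higher in cerebellum was 23%. Otx2 had 11.2 ± 2.56 CPM in cerebellum (SD, n = 6) and 2.22 ± 2.54 CPM in cortex (SD, n = 4), a log2 fold change of 2.57 ± 0.48 (SE, edgeR adjusted p = 0.001). Clic6 had 24.6 ± 7.77 and 7.27 ± 11 CPM, with 2.6 ± 0.57 (edgeR adjusted p = 0.0038), and Folr1 4.46 ± 2.63 and 1.06 ± 1.6 CPM, with 2.66 ± 1 (edgeR adjusted p = 0.049). Ttr and Kl missed the threshold at 3.6 ± 1.36 and 2.12 ± 0.8 (edgeR adjusted p = 0.052 for each), and Rarres2 had 0.17 ± 0.24. Only Otx2 had no overlap between the 2 regions, where 16.2% of all genes were higher in cerebellum without overlap. The Folr1 call was lost with size factors of DESeq2's kind, with no filter on low counts and in 10 of the 14 fits that left out 1 library (edgeR adjusted p = 0.012 to 0.16). Without wild-type cerebellum 1, 8 of the 9 passed, all but Rarres2, and 20.6% of all genes did so as higher in cerebellum. That library was picked out for its low values of these genes, so a larger count without it follows in part from that choice. DESeq2 passed 5, Ttr, Kl, Clic6, Folr1 and Otx2, against 23.5% of all genes. Blocking on genotype and number, 6 passed, Kl, Clic6, Folr1, Otx2, Sostdc1 and Enpp2, against 19.2% of all genes. That fit draws nothing on this contrast from wild-type cerebellum 1 and knockout cerebellum 3, which have no cortical or hippocampal library of their number.

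The hippocampus against the cortex gave 7 estimates above and 2 below 0, and none of the 9 passed, where 5.49% of all genes passed as higher in hippocampus. No gene of the 9 was higher in hippocampus without overlap, against 8.9% of all genes. Kl had the largest estimate, 52.9 ± 23.2 CPM in hippocampus and 13.2 ± 17.8 CPM in cortex (SD, n = 4 each), with 2.43 ± 0.85 (SE, edgeR adjusted p = 0.11). At an unadjusted p under 0.05 there were 3 of the 9 and 6073 of all genes. DESeq2 passed Kl alone of the 9, where it passed 6.77% of all genes as higher in hippocampus. Knockout cortex 2 was picked out for its high values of these genes, so larger estimates without it follow in part from that choice. Leaving it out also leaves 1 knockout library in cortex, so passing in that fit is not taken as a difference between regions. Without knockout cortex 2, Clic6 (2.65 ± 0.47) and Otx2 (1.45 ± 0.37) passed, where 6.59% of all genes did so as higher in hippocampus.

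The cerebellum exceeded the hippocampus for 7 of the 9 estimates, and Otx2 passed, with a log2 fold change of 2.17 ± 0.47 (SE, edgeR adjusted p = 0.0027). The share of all genes that passed as higher in cerebellum was 22.6%, and 20.3% were higher without overlap, as Otx2 was. Kl (-0.31 ± 0.72) and Rarres2 (-0.43 ± 0.24) had estimates below 0. Without wild-type cerebellum 1, Aqp1 (1.77 ± 0.47) and Enpp2 (1.33 ± 0.32) passed as well, where 20.8% of all genes did so as higher in cerebellum. As that library was picked out for its low values of these genes, the added calls follow in part from that choice. DESeq2 passed Aqp1 and Otx2, against 23.2% of all genes.

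Genes that act with the 9 proteins were read from lists of their receptors, carriers and enzymes. With edgeR none of them passed for knockout against wild type in any region, as no gene did in that test. Of 10 genes of thyroid hormone and retinoid handling, which act with transthyretin, 9 were lower in cerebellum than in cortex and none higher, opposite to the estimate for Ttr. They included the hormone receptor genes Thrb (log2 fold change -2.52 ± 0.13) and Thra (-0.84 ± 0.08), the deiodinase gene Dio2 (-1.57 ± 0.12) and the thyroid-hormone-binding Crym (-7.35 ± 0.37). Among 5 genes of the FGF system of alpha-Klotho, Fgfr1 was higher in cerebellum (1.49 ± 0.13, 171 ± 14.5 against 61.4 ± 18.8 CPM) and in hippocampus (1.28 ± 0.14) than in cortex, and Fgfr3 was lower in cerebellum (-0.68 ± 0.19). Among folate genes, those higher in cerebellum than in cortex included Ggh (0.74 ± 0.15) and Fpgs (0.48 ± 0.16).

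Of 8 receptors and phosphatases of LPA, the product of autotaxin, Lpar6 was higher in cerebellum than in cortex (0.94 ± 0.19) and Plpp3 (-0.46 ± 0.11), Plpp1 (-0.66 ± 0.19) and Lpar5 (-1.38 ± 0.49) were lower. Of 3 chemerin receptor genes, Gpr1 was lower in cerebellum (-1.77 ± 0.34). Of 11 BMP and Wnt genes, on which the Sostdc1 protein acts, 3 were higher and 4 lower in cerebellum, led by the ligand gene Bmp5 (2.64 ± 0.26) and the Wnt-pathway receptor gene Lrp4 (-1.42 ± 0.14). Of the 15 transporter and channel genes 8 were higher and 1 lower in cerebellum than in cortex, with Slc29a4, a monoamine transporter gene, at 2.55 ± 0.43 and the potassium channel gene Kcnj13 at 0.81 ± 0.2. Of the 22 other epithelial genes 8 were higher and none lower, with Col9a3 at 1.9 ± 0.26 and Cldn2 at 3.88 ± 1.14. Over all tested genes 5685 were higher and 6256 lower in this comparison, and the medians were 0.76 and 1.23 for the epithelial lists, -1.41 for the thyroid hormone and retinoid list and 0.01 for all genes.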

How the data were processed

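The authors deposited 1 table of whole-number read counts per gene, not normalized, for 14 libraries. The tools named in the submitters' processing notes are featureCounts 2.0.1 for the counts, STAR 2.7.3a for alignment, and Trim Galore 0.6.4 with cutadapt 2.10 for trimming, and the build is GRCm38.p6, also named mm10. Not given in the sources used here are strand, the handling of reads that map to several places and the annotation release, so reads of overlapping or antisense genes cannot be told apart. Symbols, positions and exon lengths came from GENCODE M21, which matched 48058 identifiers with the version ignored. No symbol there is CARIP, so the targeted gene is not reported.

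Genes were filtered with filterByExpr and compared with edgeR 4.0.16 (R 4.3.3), by the robust quasi-likelihood test on TMM-scaled counts of all 14 libraries in 6 groups, with 8 residual degrees of freedom. P-values were Benjamini-Hochberg adjusted over all genes, with a threshold of 0.05. The test was checked on simulated counts. Totals were 20.1 to 38.8 M reads. Precision at low levels is limited by read number, and without molecular identifiers intervals and the floor of 3 reads cover counting error only. Alternatives were DESeq2 1.42.0, its kind of size factors, no filter, the libraries of 1 region alone, a block, and leaving out each library.

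The 9 genes, the gene lists, the promoter motifs and the tests were chosen with earlier results of these data known. All 9 genes are named. From each list up to 4 genes that passed with the smallest p were eligible to be named, otherwise the 2 with the highest mean CPM, and likeness took the 10 genes (5 for Enpp2) of highest r among tested genes with a mean log2 CPM of at least 0. Promoter windows came from RefSeq. A gene of the folate list is not reported here.

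Pairing comes from the numbers in the titles. Deviations from the group mean correlated at 0.29, 0.78 and 0.38 between same-numbered cerebellar libraries. Knockout 3 with wild type 1 (0.49) was closer than the pairs numbered 1 (0.29) and 3 (0.38). Knockout 1 with wild type 3 (0.35) was closer than the pair numbered 1. These correlations therefore do not settle whether libraries numbered 1 and 3 are paired by number. By genotype and number the deviations correlated at 0.17 to 0.42 between cerebellum and cortex and at 0.18 to 0.25 between cortex and hippocampus. The values between cerebellum and hippocampus were -0.09 to 0.19.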

Additional observations from a re-analysis of the deposited data

How the results depend on the processing

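The number of the 9 genes that passed was compared over the alternatives. For knockout against wild type in cortex DESeq2 passed 1 gene, and leaving out 1 library of another region gave 0. Leaving out a cortical library leaves 1 in its group, so those counts are not given. For cerebellum against cortex, with 3 in the main test, DESeq2 passed 5, the replicate block 6, and leaving out 1 library 2 to 8, the highest without wild-type cerebellum 1. For hippocampus against cortex, with 0 in the main test, DESeq2 passed 1 and leaving out 1 cerebellar library gave 0 to 1. For cerebellum against hippocampus, with 1 in the main test, DESeq2 passed 2, the replicate block 3 (with 40% of all genes in either direction), and leaving out 1 library 1 to 3. For the difference of the knockout estimate, leaving out 1 cerebellar library gave 0 for each pair of regions. The block changed no other count of the 9 genes. No paired analysis was possible for knockout against wild type in cortex or hippocampus because the genotypes share only the number 2 there. The cause of these moves was not tested. Estimates of single genes changed sign when 1 library was left out, or for Otx2 with the cerebellar replicate block, and none passed with the changed sign. For knockout against wild type in cerebellum the log2 fold change ranged from -0.12 to 1.51 for Folr1, -0.1 to 1.41 for Aqp1, -0.29 to 1.65 for Sostdc1 and -0.05 to 0.82 for Enpp2, lowest without wild type 1 and highest without wild type 3. Otx2 ranged from -0.27 to 0.21 in the same way, and with the replicate block it was above 0 but rounded to 0. In cortex Otx2 ranged from -0.36 without knockout 2 to 2.54 without knockout 1, and in hippocampus Rarres2 from -0.26 to 0. For hippocampus against cortex the ranges were -0.25 to 3.04 for Ttr, -1.16 to 0.01 for Aqp1 and -0.81 to 0.02 for Enpp2. For the difference cerebellum minus cortex they were -2.65 to 0.37 for Kl, -4.16 to 0.17 for Folr1, -2.58 to 0.31 for Otx2, -2.97 to 0.19 for Sostdc1 and -0.75 to 0.33 for Enpp2, all highest without knockout cortex 2. Depth limits Sostdc1, Folr1 and Aqp1 most, with 0, 2 and 4 reads in their lowest libraries.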
